A study of Mus musculus with 9 samples.

Results

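The transcripts described here encode the carnitine shuttle and the long-chain and medium-chain enzymes of mitochondrial fatty acid oxidation, 9 genes chosen by name: Cpt1a, Cpt1b, Slc25a20, Cpt2, Acadvl, Acadl, Acadm, Hadha and Hadhb. The platform's probe table assigned 16 of the 45037 probe sets that were not array controls to them. Of these, 15 were assigned to 1 gene each and covered 8 of the 9 genes, among 18193 genes measured in this way. The remaining probe set was assigned jointly to Cpt1b, to its neighbour Chkb and to Gm44502, a transcript that spans both, so no value could be credited to Cpt1b by itself. RNA came from primary white adipocytes differentiated in culture from inguinal stromal-vascular cells of C57BL6 males 30 to 35 days old and was hybridised to 9 Affymetrix mouse arrays. Differentiation was started in all cultures by a 2-day cocktail of rosiglitazone (1 µM), insulin (5 µg/ml), isobutylmethylxanthine (0.5 µM) and dexamethasone (1 µM). Insulin and rosiglitazone were then continued until day 6, and the cells had plain medium afterwards. Rosiglitazone activates PPARγ, a receptor that drives lipid genes, and every group, the controls included, carried this history. On day 8, 3 cultures received 100 ng/ml PTH(1-34) for 4 h, 3 received 100 ng/ml PTHrP(1-34) for 4 h and 3 were controls, for which the sources used here name no treatment. Parathyroid hormone (PTH) and parathyroid hormone-related protein (PTHrP) act through 1 receptor, which raises cAMP, and the numbers in parentheses name the amino-terminal fragments used. The titles call the replicates biological without naming mice or cultures, so p-values measure the spread between these samples, which may be partly technical.

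Long-chain fatty acids enter the mitochondrial matrix as carnitine esters. CPT1 on the outer membrane makes the ester and is the step that malonyl-CoA inhibits, the carrier encoded by Slc25a20 exchanges it for free carnitine across the inner membrane, and CPT2 turns it back into an acyl-CoA. The acyl-CoA dehydrogenases (Acadvl for very long, Acadl for long and Acadm for medium chains) then take the first step of each round of oxidation, and the trifunctional protein, whose subunits are encoded by Hadha and Hadhb, carries out the remaining steps for long chains. White adipocytes mainly store and release fatty acids, and cAMP, which switches on lipolysis, raises the supply of free fatty acids inside the cell.

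RefSeq start-site sequences (build GRCm38.p6) were found for 8 of the 9 genes. Those of the 3 import genes are shown because, on their brightest probe sets, every treated array lay above every control. That of Hadhb is shown because it shares its upstream region with Hadha. Each run covers the 250 bases before the start site, 5′ to 3′. Capitals mark matches, on either strand, to the GC box GGGCGG or to the hexamer AGGTCA of nuclear receptor sites such as those of PPAR.
Cpt1a (chr19:3323051-3323300, plus strand): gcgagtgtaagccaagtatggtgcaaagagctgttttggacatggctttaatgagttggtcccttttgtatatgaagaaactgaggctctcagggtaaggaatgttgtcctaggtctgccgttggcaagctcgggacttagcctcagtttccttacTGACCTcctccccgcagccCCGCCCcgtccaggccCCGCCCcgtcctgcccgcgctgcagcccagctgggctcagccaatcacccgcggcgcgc
Slc25a20 (chr9:108661886-108662135, plus strand): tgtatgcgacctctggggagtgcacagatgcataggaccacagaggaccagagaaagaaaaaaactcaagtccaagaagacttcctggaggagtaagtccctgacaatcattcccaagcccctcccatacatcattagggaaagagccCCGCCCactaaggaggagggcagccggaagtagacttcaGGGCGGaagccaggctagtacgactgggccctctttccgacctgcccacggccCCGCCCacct
Cpt2 (chr4:107923590-107923839, minus strand): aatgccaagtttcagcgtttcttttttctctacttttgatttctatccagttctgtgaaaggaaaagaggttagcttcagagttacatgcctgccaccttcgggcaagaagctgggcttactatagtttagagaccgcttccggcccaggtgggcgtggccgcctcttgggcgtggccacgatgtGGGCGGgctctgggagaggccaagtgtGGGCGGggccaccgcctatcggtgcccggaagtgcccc
Hadhb (chr5:30155003-30155252, plus strand): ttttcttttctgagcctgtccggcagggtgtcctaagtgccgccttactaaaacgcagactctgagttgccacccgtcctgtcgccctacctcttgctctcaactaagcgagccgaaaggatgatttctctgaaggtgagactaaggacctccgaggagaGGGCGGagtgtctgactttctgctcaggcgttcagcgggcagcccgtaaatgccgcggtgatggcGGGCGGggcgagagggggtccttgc

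The Cpt1a window lies before a start site 975 bases inside the outermost RefSeq limit of the gene, so it is 1 of several possible starts. It held 1 AGGTCA hexamer, 94 bases before the start, and 2 GC boxes, the Cpt2 window held 2 GC boxes and the Slc25a20 window 3. GC boxes were present in 6 of the 8 member windows and in 32.7% of all 32851 RefSeq windows, and the hexamer in 3 of 8 (Cpt1a, Acadvl and Acadm) and 14.0%. The full cAMP-response element TGACGTCA was in 0 of 8 member windows (1.55% of all windows), its core TGACG in 1 of 8, that of Acadm (17.8%), and DR1, a direct repeat of AGGTCA with 1 base between the copies, in 0 of 8 (0.0335%). Overlapping matches were counted apart, and the core lies within the full element. Hadha and Hadhb start 273 bases apart and run in opposite directions, and their windows share 228 bases. The only GC box of the Hadha window, 188 bases before its start, is the same site as the Hadhb box 90 bases before that gene's start. It is counted for both genes. The member windows held 49.6% (Acadvl) to 68.0% (Acadl) G and C, and the median of all windows was 52.4%.

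The median signal of the arrays ran from 48.15 to 52.56, and correlations of log2 values were between 0.991 and 0.995 for any pair. For actin, the array's control probes at the 3′ end over those at the 5′ end, a measure of RNA quality, gave a ratio of 1.45 to 1.51 in controls and 1.52 to 1.65 in treated arrays, so it divided the arrays as the treatment did (p = 0.0119 in an exact permutation test, two-sided, with no smaller value possible among 84 splits), and its part in the results below was not tested. The same ratio for Gapdh averaged 0.965 in controls, 0.983 with PTH and 0.960 with PTHrP (exact permutation p = 0.643). Adipocyte markers were bright: 1 of 6 measured markers (Cidec, a lipid droplet protein) rose with each peptide and the other 5 did not pass, and their summed signal was 46472 to 48031 in controls, 47121 to 49929 with PTH and 45967 to 48335 with PTHrP. Markers of preadipocytes and fibroblasts summed to 18334 to 19069, 17799 to 18322 and 17628 to 19447, with 0 of 6 called by limma (0 had an unadjusted p below 0.05) and all 6 above the dim level of 29.0 (the 40th percentile of mean probe set signals). Of the markers of other cells, 6 macrophage genes had 0 calls with either peptide alone and 1 unadjusted p below 0.05 with each. They summed to 797 to 872 in controls, 863 to 985 with PTH and 856 to 935 with PTHrP. With each peptide 2 of their log2 changes were positive and 4 negative, with medians of -0.055 (PTH) and -0.112 (PTHrP). The sums thus do not stand for the single genes. With both peptides together 1 macrophage marker rose. Endothelial markers (4 genes, 0 called, 2 and 0 unadjusted p below 0.05) summed to 247 to 290, 185 to 224 and 193 to 274. Over all 18193 genes, 6.1% were called with PTH, 5.57% with PTHrP and 8.4% with both together. An unadjusted p below 0.05 was found for 3458 of them with PTH and 3327 with PTHrP. Brown adipocyte markers rose in 2 of 4 genes with each peptide (Ucp1 and Dio2) and summed to 244 to 304, 1829 to 2499 and 1739 to 2049. No marker was at 0, and the part of any of these lists in the results below was not tested. In bulk RNA, a change in the share of a cell type and a change of RNA within its cells cannot be told apart.

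Signals below are intensities as deposited. Log2 changes are of intensity + 16, come from limma with 3 arrays per group, and are given for the brightest probe set of each gene unless another is named. A gene passed if its p-value, after Benjamini-Hochberg adjustment across the 18193 genes, was below 0.05. Probe sets of different genes differ in binding strength, so their levels were not set against each other.

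With PTH, 2 of the 8 genes rose, Cpt1a and Cpt2, 0 fell and 6 did not pass, where 6.1% of all genes passed (2.96% rose and 3.14% fell). With PTHrP the same 2 genes rose, 0 fell and 6 did not pass, where 5.57% of all genes passed (2.54% rose and 3.03% fell). The median log2 change over the 8 genes was 0.059 with PTH and 0.077 with PTHrP, and over all genes it was -0.0027 and -0.0050. Both comparisons use the same 3 control arrays. The 3 treated arrays lay above all 3 controls for 3 of the 8 genes with either peptide (Cpt1a, Cpt2 and Slc25a20), a pattern seen in 12.8% of all genes with PTH and 10.4% with PTHrP. For these 3 genes all 6 treated arrays were above all controls, as were those of 7.48% of all genes.

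**Figure D1:**
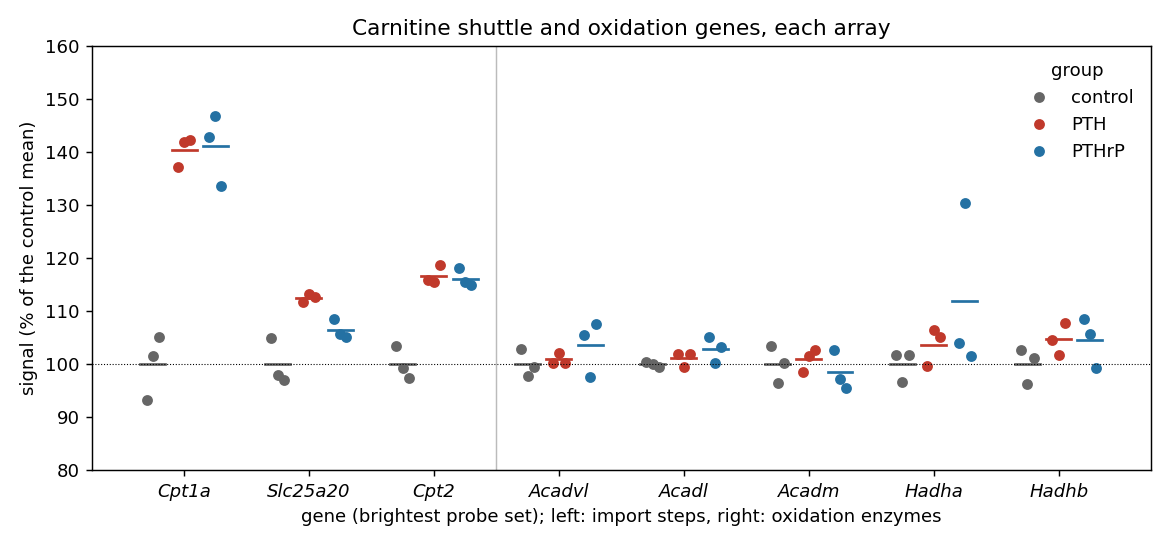
Signal of the brightest probe set of each gene on each array, as a percentage of that gene's mean over the 3 control arrays (points: arrays, horizontal bars: group means, n = 3 per group). Cpt1a lies near 140% with both peptides and Cpt2 near 116%, Slc25a20 is above its controls on all 6 treated arrays, and the oxidation enzymes overlap their controls.

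Cpt1a encodes the liver-type CPT1, the enzyme at the entry to the pathway. Its brightest probe set read 417, 454 and 470 in the 3 controls, 614, 634 and 636 with PTH, and 639, 656 and 597 with PTHrP. Every treated array was above every control, and the 2 peptide groups overlapped. Controls averaged 447 ± 27.1 (SD, n = 3), PTH arrays 628 ± 12.5 and PTHrP arrays 631 ± 30.4, which is 1.40-fold and 1.41-fold the control mean. The log2 change was 0.48 with PTH (SE 0.059, adjusted p = 0.00348) and 0.48 with PTHrP (SE 0.059, adjusted p = 0.00334). These calls held under all 18 alternative settings run for each peptide, with adjusted p up to 0.0218 for PTH and 0.0272 for PTHrP.

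The 2 other Cpt1a probe sets, whose names end in _x_at because some of their probes can match further transcripts, were higher in every treated array too, a pattern found in 10.5% of all probe sets with PTH and 8.93% with PTHrP. Probe set 1434866_x_at read 317, 379 and 321 in controls, 568, 437 and 562 with PTH and 587, 536 and 631 with PTHrP. Probe set 1438156_x_at read 334, 354 and 306, then 489, 410 and 502, and then 562, 516 and 619. On both, PTH replicate 2 was the lowest treated array, which it was not on the brightest probe set. In a fit over all 45037 probe sets, where 2.7% passed with PTH and 2.39% with PTHrP, the log2 changes of 1434866_x_at were 0.60 (adjusted p = 0.0402) and 0.76 (adjusted p = 0.0155). Those of 1438156_x_at were 0.47 (adjusted p = 0.0504, not passing) and 0.74 (adjusted p = 0.0084). The brightest probe set, 1460409_at, passed in that fit with adjusted p = 0.00838 and 0.00812. The 2 member probe sets that passed with PTH in that fit were thus both of Cpt1a. Leaving out 1 array from that fit moved the number of member probe sets that passed with PTH from 2 to 1 without PTH replicate 1, any 1 PTHrP array, control replicate 2 or control replicate 3. Without PTH replicate 3 it was 0, so the Cpt1a calls with PTH were lost there.

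**Figure D2:**
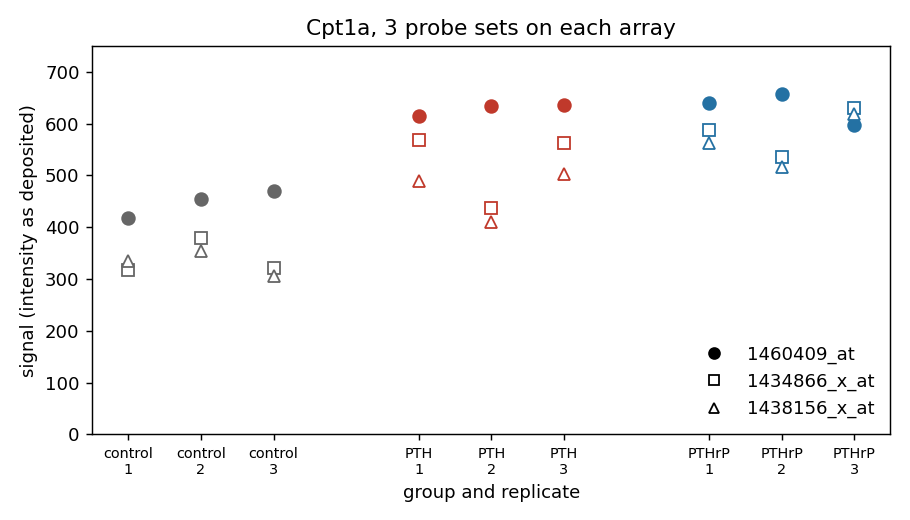
Signal of the 3 Cpt1a probe sets on each of the 9 arrays, on a linear axis from 0 (filled circles: 1460409_at, squares: 1434866_x_at, triangles: 1438156_x_at). All 3 are higher on every treated array than on every control, and the 2 dimmer ones are lowest among treated arrays on PTH replicate 2.

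Cpt2 encodes the inner-membrane CPT2, which returns the acyl group to coenzyme A. It read 2487, 2390 and 2343 in controls, 2790, 2779 and 2854 with PTH and 2841, 2779 and 2764 with PTHrP, without overlap between treated and control arrays. The means were 2406 ± 73.7, 2808 ± 40.7 and 2795 ± 40.8 (SD, n = 3), or 1.17-fold and 1.16-fold the control mean. The log2 change was 0.22 (SE 0.044, adjusted p = 0.0232) with PTH and 0.21 (SE 0.044, adjusted p = 0.0283) with PTHrP.

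The Cpt2 calls for each peptide were near the threshold. With PTH the adjusted p was 0.0778 and 0.0679 when control replicate 2 or 3 was left out, and 0.0670, 0.0720 and 0.104 when PTH replicate 1, 2 or 3 was. With PTHrP it was 0.0862 and 0.0804 when control replicate 2 or 3 was left out, 0.105, 0.0670 and 0.0595 for PTHrP replicate 1, 2 or 3, and 0.0518, 0.0539 and 0.0588 for PTH replicate 1, 2 or 3. The size itself stayed between 0.20 and 0.25 on the log2 scale for PTH and 0.20 and 0.24 for PTHrP when 1 array was left out. With both peptides together (6 treated arrays against 3 controls) the log2 change of Cpt2 was 0.22 (adjusted p = 0.0103), where 8.4% of all genes passed (3.84% rose), and this call held under all 17 alternatives run, with adjusted p up to 0.0468. The call was also lost for each peptide when only the groups compared were fitted (adjusted p = 0.0575 and 0.103), and for PTHrP with median centring (0.0612). In the fit over all probe sets, in which a smaller share passed, 1416772_at of Cpt2 had adjusted p = 0.0670 with PTH and 0.0802 with PTHrP. Its other probe set, 1447820_x_at, had a mean over all arrays below the dim level of 29.0. It read 13.1 to 26.2 in controls, 28.1 to 29.9 with PTH and 31.4 to 40.0 with PTHrP. It too did not overlap between treated and control arrays, with log2 changes of 0.39 (adjusted p = 0.193) and 0.62 (adjusted p = 0.0516). Averaging both probe sets, with the dim one at equal weight, gave a Cpt2 change of 0.31 with PTH (adjusted p = 0.0720) and 0.42 with PTHrP (adjusted p = 0.0236).

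Slc25a20 encodes the carnitine-acylcarnitine carrier of the inner membrane. It read 1725, 1611 and 1594 in controls, 1834, 1860 and 1851 with PTH and 1783, 1736 and 1729 with PTHrP. All treated arrays were above all controls, and the PTH arrays were above the PTHrP arrays, as in 5.23% of all genes. The means were 1643 ± 71.6, 1848 ± 12.7 and 1749 ± 29.7 (SD, n = 3). The log2 change was 0.17 with PTH (SE 0.047, unadjusted p = 0.00652, adjusted p = 0.0806) and 0.090 with PTHrP (SE 0.047, adjusted p = 0.366), so neither passed. The PTH change passed in 3 of the 18 alternatives: with the dimmest 40% of probe sets left out (adjusted p = 0.0365), a pseudocount of 64 (0.0346) and a trended and robust variance (0.0116). The second probe set, 1423109_s_at, overlapped between groups, with 909 to 996 in controls, 971 to 1045 with PTH and 942 to 1035 with PTHrP.

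The probe set shared by Cpt1b, which encodes the muscle-type CPT1, with Chkb and Gm44502 read 221, 200 and 225 in controls, 207, 192 and 208 with PTH and 204, 207 and 188 with PTHrP. The groups overlapped, and the log2 changes were -0.082 (adjusted p = 0.675) and -0.099 (adjusted p = 0.605) in the fit over all probe sets. Of 7 skeletal muscle markers, 1 (Acta1) fell with each peptide, where 3.14% of all genes fell with PTH and 3.03% with PTHrP. Acta1 went from 406 to 306 with PTH and 299 with PTHrP. The other 6 did not pass and averaged at most 42.7 in any group.

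Of the 5 oxidation enzymes, limma called 0 with either peptide, where 6.1% of all genes passed with PTH and 5.57% with PTHrP. An unadjusted p below 0.05 was found for 0 of the 5. Of all 18193 genes, 3458 had such a p-value with PTH and 3327 with PTHrP. The log2 changes of the 5 enzymes ran from 0.013 to 0.066 with PTH and from -0.022 to 0.15 with PTHrP. The 95% intervals of the 5 ratios to control reached at most 1.20-fold with PTH and 1.29-fold with PTHrP, and went down to 0.896-fold and 0.910-fold, with Hadha the least certain. Only the Hadha intervals included the 1.17-fold (PTH) and 1.16-fold (PTHrP) changes of Cpt2. A change of that size is thus not excluded for Hadha.

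Acadvl, the very-long-chain dehydrogenase bound to the inner membrane, read 3812, 3620 and 3686 in controls, 3715, 3786 and 3716 with PTH and 3907, 3618 and 3987 with PTHrP (log2 changes 0.013 and 0.049). Acadl, the long-chain dehydrogenase, read 6182, 6169 and 6134, then 6275, 6132 and 6286, then 6478, 6173 and 6362 (log2 changes 0.016 and 0.040). Acadm, the medium-chain dehydrogenase, read 7057, 6583 and 6833, then 6722, 6928 and 7011, then 7006, 6633 and 6521 (log2 changes 0.014 and -0.022). For all 3 the groups overlapped, and no change passed (adjusted p from 0.692 to 0.933). The second Acadl probe set, 1448988_at, read 33.9 to 48.5 over the 9 arrays and showed no separation of groups.

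Of the trifunctional protein, Hadhb (thiolase subunit) read 7389, 6933 and 7287 in controls, 7535, 7327 and 7763 with PTH and 7818, 7619 and 7146 with PTHrP. Its log2 changes were 0.066 (adjusted p = 0.592) and 0.063 (adjusted p = 0.614). A second bright probe set of Hadhb, 1426522_at, gave 0.039 with PTH, with all PTH arrays above all controls, and 0.044 with PTHrP (adjusted p = 0.814 and 0.791), and the third, 1442732_at, was dim at 41.3 to 65.4. Hadha (hydratase and dehydrogenase subunit) read 1087, 1031 and 1086 in controls, 1064, 1136 and 1122 with PTH and 1111, 1392 and 1085 with PTHrP. PTHrP replicate 2 stood above the other 8 arrays for Hadha and did not do so for Hadhb, although the 2 genes share their upstream region. The log2 change of Hadha was 0.052 with PTH (adjusted p = 0.837) and 0.15 with PTHrP (adjusted p = 0.447), and 0.040 with PTHrP without that array (adjusted p = 0.772).

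**Figure D3:**
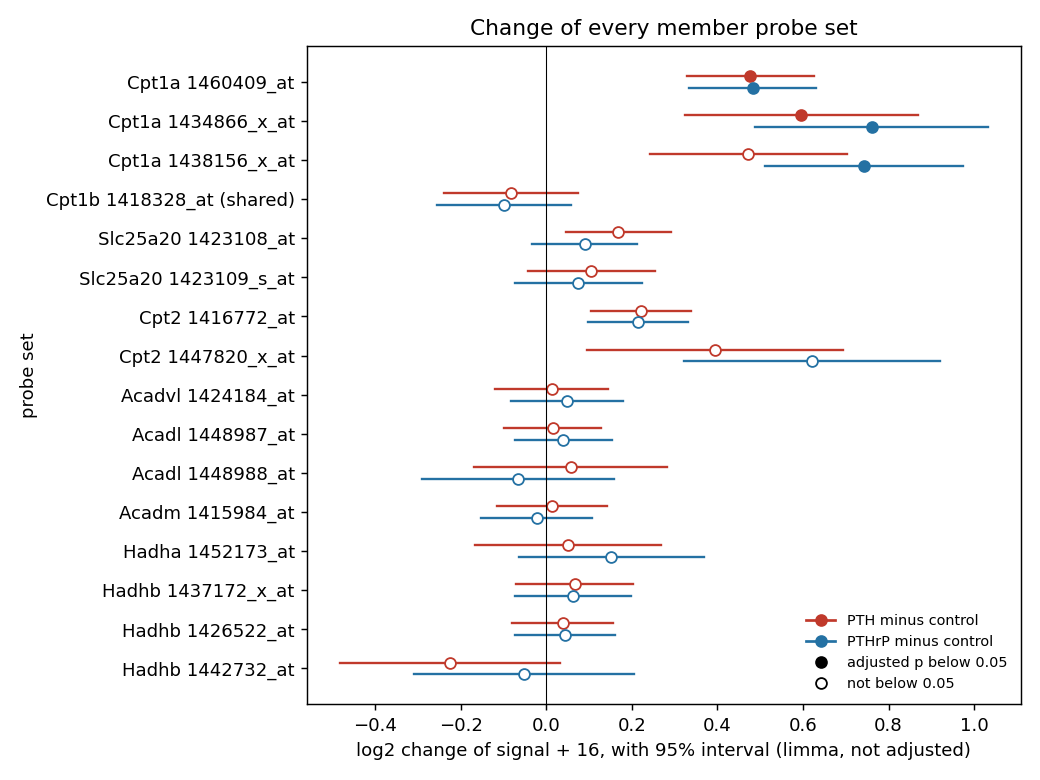
Log2 change of signal + 16 for all 16 probe sets with their 95% intervals (limma over all probe sets, intervals not adjusted for the number tested), PTH in red and PTHrP in blue, filled where the adjusted p is below 0.05. The filled points are all probe sets of Cpt1a (2 with PTH and 3 with PTHrP), and the probe sets of the oxidation enzymes spread around 0.

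PTH and PTHrP were compared directly at the same dose and time, 100 ng/ml for 4 h. With limma 0 of the 8 genes passed, 0 had an unadjusted p below 0.05, and 0 of all 18193 genes passed (730 had an unadjusted p below 0.05). The difference of PTH minus PTHrP on the log2 scale was -0.0050 for Cpt1a (95% interval -0.14 to 0.13), 0.0066 for Cpt2 (-0.094 to 0.11) and 0.079 for Slc25a20 (-0.029 to 0.19). As ratios of the brightest probe sets, these intervals run from 0.907 to 1.10, from 0.937 to 1.08 and from 0.980 to 1.14. For the 5 oxidation enzymes the difference lay between -0.10 (Hadha) and 0.036 (Acadm). The widest interval, that of Hadha, ran from -0.31 to 0.11, and without PTHrP replicate 2 its difference was 0.012. The other probe sets of Cpt1a and Cpt2 gave larger differences, all lower with PTH. For Cpt1a, 1438156_x_at had -0.27 (95% interval -0.50 to -0.039, unadjusted p = 0.0269 from limma), with every PTH array below every PTHrP array, and 1434866_x_at had -0.16 (-0.44 to 0.11), with overlap. For Cpt2, the dim 1447820_x_at had -0.23 (-0.53 to 0.072), again with every PTH array below every PTHrP array, a pattern seen in 4.44% of all probe sets. After adjustment over all probe sets 0 of the 16 passed, and 1438156_x_at was the only 1 of them with an unadjusted p below 0.05. With the mean of probe sets the differences were -0.15 for Cpt1a and -0.11 for Cpt2, outside the intervals of their brightest probe sets, so the size of the difference depends on the probe set. A failure to pass does not show that the peptides act alike.

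**Figure D4:**
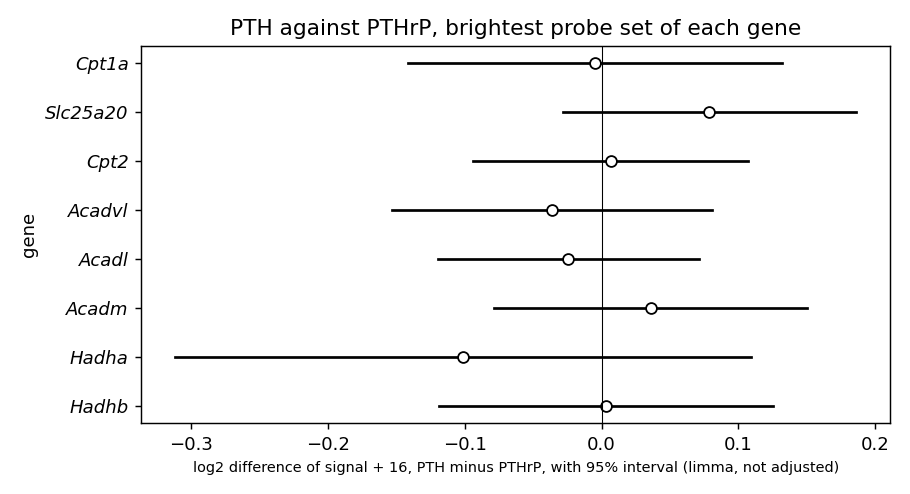
Log2 difference of signal + 16 between PTH and PTHrP for the 8 genes (circles) with 95% intervals (lines, limma, not adjusted). All 8 intervals include 0, and that of Hadha, from -0.31 to 0.11, is the widest.

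The neighbouring steps were followed in 8 lists of 82 genes, 76 of them measured by a probe set of their own. Of the 76, 3 rose and 2 fell with PTH, and 1 rose and 2 fell with PTHrP, a share of 6.58% and 3.95%, near the 6.1% and 5.57% of all genes. With both peptides together 4 rose and 3 fell, a share of 9.21% against 8.4% of all genes. Their median log2 change was 0.021 with PTH and 0.0014 with PTHrP.

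Fatty acid activation and uptake held most of these calls, 4 of its 11 measured genes with PTH (3 up, 1 down) and 2 with PTHrP (1 up, 1 down). Acsl4, an acyl-CoA synthetase that prefers arachidonic acid, went from 919 ± 55.3 (SD, n = 3) to 1655 ± 52.9 with PTH and 1667 ± 56.8 with PTHrP, a log2 change of 0.84 (adjusted p = 0.000205) and 0.85 (adjusted p = 0.000175). Acsl3, a synthetase found at lipid droplets, fell by 0.37 (adjusted p = 0.00425) and by 0.33 (adjusted p = 0.00736). Slc27a3 and Slc27a4, of the fatty acid transport protein family, rose with PTH by 0.53 (adjusted p = 0.0115) and 0.26 (adjusted p = 0.0318), and with PTHrP their changes of 0.28 and 0.17 did not pass (0.122 and 0.143). The Slc27a3 call was lost when PTH replicate 2 or 3 was left out (adjusted p = 0.0516 and 0.0511). That of Slc27a4 was lost when control replicate 1 or 3 (0.0791 and 0.0871) or PTH replicate 1, 2 or 3 (0.0906, 0.0913 and 0.123) was left out, and when only the groups compared were fitted (0.0591).

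Of 9 genes that set malonyl-CoA, the inhibitor of CPT1, or encode AMPK, the kinase that lowers it, 1 fell with each peptide. Acacb, the acetyl-CoA carboxylase of the mitochondrial surface, went from 309 ± 22.6 to 207 ± 40.0 with PTHrP (log2 change -0.56, adjusted p = 0.0429) and to 276 ± 13.4 with PTH (-0.15, adjusted p = 0.612). Prkag2, an AMPK subunit, fell with PTH (-0.28, adjusted p = 0.0407) and had a change of -0.20 with PTHrP (adjusted p = 0.131). The Acacb call was lost without control replicate 1, 2 or 3 (adjusted p 0.122, 0.0792 and 0.117), without PTHrP replicate 3 (0.0578) and without PTH replicate 1, 2 or 3 (0.0737, 0.0705 and 0.0736). The Prkag2 call was lost without control replicate 1, 2 or 3 (0.0711, 0.125 and 0.110), without PTH replicate 1, 2 or 3 (0.0853, 0.141 and 0.113) and without PTHrP replicate 2 (0.0632). Median centring ended both calls (0.0520 for Acacb and 0.0568 for Prkag2), as did a pseudocount of 1 (0.0663 and 0.0536), and fitting only the groups compared ended that of Acacb (0.126). With the mean of probe sets, Acacb had -0.48 (adjusted p = 0.289) and Prkag2 -0.094 (adjusted p = 0.372). Mlycd, which degrades malonyl-CoA, had changes of 0.029 and 0.040 (adjusted p = 0.901 and 0.853).

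In the other lists limma called 0 genes with either peptide alone, where 6.1% of all genes passed with PTH and 5.57% with PTHrP. With both together it called 2, Aldh9a1 and Ehhadh, where 8.4% of all genes passed. The counts of unadjusted p below 0.05 given next stand beside 3458 of all 18193 genes with PTH and 3327 with PTHrP. Carnitine supply and the other carnitine acyltransferases (7 genes) had 3 unadjusted p below 0.05 with PTH and 2 with PTHrP. Aldh9a1, an enzyme of carnitine synthesis, came nearest in that list, with changes of 0.21 and 0.21 (adjusted p = 0.0563 and 0.0633) and 0.21 with both together (adjusted p = 0.0269). The 16 other enzymes of mitochondrial oxidation had 1 and 0 such p-values, with log2 changes between -0.10 and 0.14 with PTH and between -0.074 and 0.098 with PTHrP. The 13 measured genes of peroxisomal oxidation had 6 and 5, among them Ehhadh, the peroxisomal bifunctional enzyme (-0.22 and -0.18, adjusted p = 0.0503 and 0.0933, and -0.20 with both together, adjusted p = 0.0316). The 2 measured ketone body genes had 1 and 0.

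Of 9 measured PPAR, PGC-1 and partner genes, 0 were called, where 6.1% of all genes passed with PTH and 5.57% with PTHrP. They had 3 and 1 unadjusted p below 0.05 (3458 and 3327 of all 18193 genes). Ppargc1a, the coactivator of mitochondrial genes, had log2 changes of 0.16 (adjusted p = 0.274) and 0.14 (adjusted p = 0.355), Ppara 0.18 and 0.086 (0.254 and 0.649) and Pparg 0.0054 and -0.045 (0.979 and 0.779). Among 9 other PPAR targets, 0 were called, with 1 and 0 unadjusted p below 0.05. Pdk4, a kinase that turns off pyruvate oxidation and is often induced with Cpt1a, had -0.16 and -0.11 (adjusted p = 0.200 and 0.413). Aldh9a1, Ehhadh, Mlycd and the marker genes named above fall outside the rule for named genes and were picked out after their values were seen.

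**Figure D5:**
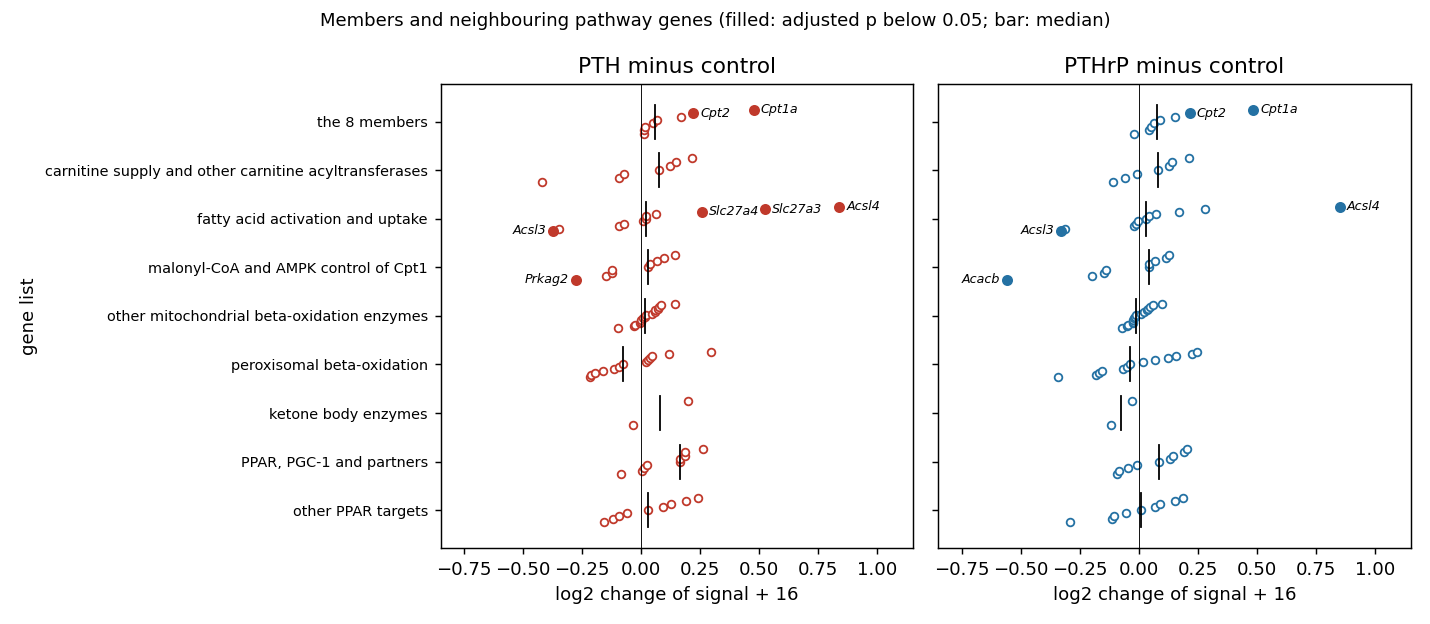
Log2 change of signal + 16 with PTH (left) and PTHrP (right) for the 8 genes and for the 8 neighbouring lists; each point is a gene, filled and named where the adjusted p is below 0.05, and bars are list medians. Acsl4 is the highest point in both panels, followed with PTHrP by Cpt1a, and the other enzymes of mitochondrial oxidation lie within -0.10 to 0.14.

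Among 12823 genes above the dim level, the 5 whose log2 values followed Cpt1a most closely over the 9 arrays were Nrcam (Pearson r = 0.989), Tox3 (0.989), Stac2 (0.985), Hspa14 (0.984) and Nol10 (0.984). The arrays share 3 groups, so these correlations describe the step from control to treated arrays. The dim level was applied to the mean over all 9 arrays. Tox3 averaged 5.87 in controls, below the dim level of 29.0, and passed this filter only through its brighter treated arrays. Of the other 7 members, Cpt2 followed Cpt1a most closely (r = 0.92, rank 270), then Slc25a20 (0.725, rank 1329), and Acadm least (-0.0593).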

How the data were processed

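Expression was measured on 9 arrays, 3 each for control, PTH and PTHrP. The deposited values are intensities, 1 per probe set and array. Biotin-labelled cRNA was made by the standard Affymetrix protocol, per the labels, while the sources used here do not give the summary method or scaling. A linear scale was taken from the range of values. The platform table gave 1 gene symbol for 34945 of the 45101 probe sets, several for 932 and none for 9160, and the remaining 64 were array controls, which were left out. For each of 18193 genes the probe set with the highest mean over all arrays was used.

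A pseudocount of 16 was added to each intensity before log2, and limma 3.58.1 (R 4.3.3) was fitted with a mean per group over all 9 arrays, two-sided, with Benjamini-Hochberg adjustment and a threshold of 0.05. Every probe set was also fitted in a model over all 45037. Figures used matplotlib 3.10.9 in Python 3.11.15. No statement rests on depth, since arrays have none; the number of arrays limits the precision.

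The members, lists and rules were chosen with earlier results of these data known. Named genes were the members, up to 4 genes per list that passed with either peptide, Ppargc1a, Ppara, Pparg, Pdk4 and Acacb, and the 5 genes most correlated with Cpt1a; another item of the rule is not reported here. Alternatives were quantile normalization, median centring, leaving out the dimmest 40% of probe sets, pseudocounts of 1 and 64, trended and robust variance, the replicate number as a block, fitting only the groups compared, the mean of probe sets, and leaving out each array. The steps were tested on simulated data. The replicate numbers were not treated as pairs.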

Additional observations from a re-analysis of the deposited data

How the results depend on the processing

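In the fit over genes, the calls for Cpt1a held under every alternative run for each peptide and for both together. In the fit over probe sets they did not all hold: with PTH, 0 member probe sets were called without PTH replicate 3. Against 2 member genes called with PTH, 1 (Cpt1a) was called with the mean of probe sets or only the groups compared, and 1 to 2 when 1 array was left out. There were 3, with Slc25a20 added, with the dimmest 40% left out, a pseudocount of 64 or a trended and robust variance. Against 2 with PTHrP, 1 was called with median centring or only the groups compared, and 1 to 2 when 1 array was left out. Against 2 with both peptides together, 2 to 3 were called over the 17 alternatives. Member probe sets called with PTH numbered 2 and became 4 with quantile normalization, with the dimmest 40% left out or with a pseudocount of 64, 5 with a trended and robust variance, 1 with a pseudocount of 1 or only the groups compared, and 0 to 2 when 1 array was left out. With PTHrP the 3 became 5 with a pseudocount of 64 or a trended and robust variance, 4 with the dimmest 40% left out, 2 with only the groups compared, and 2 to 3 when 1 array was left out. With both peptides the 5 became 6 with a trended and robust variance, 3 with median centring and 2 to 4 when 1 array was left out, the lowest without control replicate 3. The cause of these shifts was not tested.

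With the replicate number as a block, 1 member gene was called with PTH and 1 with PTHrP, the Cpt2 adjusted p being 0.0755 and 0.0912, and 1, 2 and 3 member probe sets were called with PTH, with PTHrP and with both peptides. Slc27a4, Prkag2 (PTH) and Acacb (PTHrP) also lost their calls under the block (0.0806, 0.103 and 0.0978). After group means were removed, correlations of same-numbered arrays ran from -0.25 to 0.19, with 2 of 9 above 0.1. Those of differently numbered arrays ran from -0.25 to 0.31. The titles do not name mice or cultures, and so few correlations cannot settle whether same-numbered samples belong together.

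Changes that took the other sign were all uncalled. With the mean of probe sets they were -0.040 for Hadhb with PTH and -0.011 with both peptides, -0.013 for Acadl with PTHrP, and for PTH minus PTHrP -0.11 for Cpt2, 0.049 for Acadl and -0.058 for Hadhb. With quantile normalization they were -0.00054 for Acadl with PTH and -0.0049 for Hadhb between peptides, and with median centring 0.013 for Cpt1a between peptides and 0.0034 for Acadm with both. Leaving out 1 array gave ranges of -0.0038 to 0.033 for Acadvl, -0.012 to 0.038 for Acadm and -0.020 to 0.055 for Pparg with PTH, -0.052 to 0.0022 for Acadm with PTHrP and -0.030 to 0.020 with both. Between peptides the ranges were -0.043 to 0.024 for Cpt1a, -0.0053 to 0.018 for Cpt2, -0.17 to 0.012 for Hadha and -0.034 to 0.031 for Hadhb. With 3 arrays per group, the number of arrays and not a depth limits the precision.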
